A study of Mus musculus with 14 samples.

Results

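Fabp4, a small protein that carries fatty acids inside cells, is described here with 9 further genes of lipid uptake and fat cell formation, in muscle precursor cells of mice at 3 ages. The 10 genes were chosen by name, as Fabp4, Fabp3, Fabp5, Cd36, Lpl, Pparg, Cebpa, Plin2, Adipoq and Cfd, and every probe set annotated to 1 of them was used. That gave 17 of the 45101 probe sets of the array and covered 9 of the 10 genes, since Cfd had no probe set of its own in the annotation and was not analysed here. All 9 passed a filter on dim signal, which kept 13579 genes in all: a probe set had to lie above the 40th percentile of its array on at least 4 of the 14 arrays. The RNA came from C57BL/6 mice: 5 arrays from young animals (2 months), 4 from middle-aged animals (12 months) and 5 from aged animals (24 months), all of 1 strain and with no transgene or treatment in the labels. Cells freed from myofibres by enzymes were sorted as positive for CD29 and Cxcr4 and negative for CD45, Ter119 and Sca-1, markers used to enrich satellite cells, which are muscle stem cells. The labels do not say whether an array stands for 1 animal or a pool, so the p-values measure only the spread between these arrays, part of which may be technical. Values are log2 of intensities that the authors normalized with RMA, and each probe set has its own scale, so levels are not compared between genes.

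Circulating fat reaches tissues mostly as triglyceride in lipoproteins. Lipoprotein lipase (Lpl), held on the capillary wall by Gpihbp1, frees fatty acids from it, Cd36 helps them across the cell membrane, and fatty acid-binding proteins carry them through the cytoplasm. Fabp4 is the form of adipocytes, macrophages and capillary endothelium, Fabp3 that of heart and skeletal muscle fibres, and Fabp5 is found in epidermis, macrophages, endothelium and several other cell types. Pparg and Cebpa are the transcription factors that together establish the adipocyte programme, and Fabp4, Cd36, Lpl, Plin2 and Adipoq are among the known target genes of PPAR factors. Plin2 coats lipid droplets in most cells, and Adipoq encodes adiponectin, a hormone made by adipocytes. Muscle also holds fibro-adipogenic progenitors, which can become adipocytes in ageing or injured muscle and carry the Sca-1 that the gate was set to remove.

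Promoters of 3 members with 1 window each in the reference used are shown because Cd36, Plin2 and Adipoq stand for uptake, storage and secretion. The RefSeq table of build GRCm38.p6 holds windows of 300 bases for 7 of the 10 members (9 windows, 3 of them for Pparg). The 250 bases before the start site are printed on the strand of the gene, with capitals for AGGTCA, the half-site that PPAR and other nuclear receptors bind, and for CCAAT, on either strand (TGACCT and ATTGG on the opposite one). The Cd36 stretch lies at chr5:17835897-17836146 (minus strand), that of Plin2 at chr4:86670060-86670309 (minus strand) and that of Adipoq at chr16:23146286-23146535 (plus strand).
Cd36: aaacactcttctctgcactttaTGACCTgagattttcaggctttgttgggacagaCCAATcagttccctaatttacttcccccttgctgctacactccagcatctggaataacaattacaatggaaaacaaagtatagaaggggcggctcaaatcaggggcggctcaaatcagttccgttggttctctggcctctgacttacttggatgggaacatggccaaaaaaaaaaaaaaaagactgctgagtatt
Plin2: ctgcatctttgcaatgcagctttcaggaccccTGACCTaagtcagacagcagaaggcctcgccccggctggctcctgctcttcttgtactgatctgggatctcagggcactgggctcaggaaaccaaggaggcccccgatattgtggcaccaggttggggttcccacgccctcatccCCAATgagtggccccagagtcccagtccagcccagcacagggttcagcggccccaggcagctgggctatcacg
Adipoq: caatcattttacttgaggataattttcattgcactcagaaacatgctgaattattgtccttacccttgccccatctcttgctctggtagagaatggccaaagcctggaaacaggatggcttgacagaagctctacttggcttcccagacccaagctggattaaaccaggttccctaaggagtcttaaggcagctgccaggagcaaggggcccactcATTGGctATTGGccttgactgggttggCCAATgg
AGGTCA was found in 4 of the 9 member windows, those of Cd36 (228 bases before the start), Plin2 (218 bases before it) and 2 of Pparg, against 16.3% of all 32851 windows. The direct repeat of AGGTCA with any 1 base between (DR1, searched on both strands) was in 0 of the 9 and in 0.0396% of all windows. CCAAT was in 5 of the 9 and in 37.4% of all windows. A match is a description of letters, and other stretches of these genes were not searched.

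Across all 9 genes measured, Fabp4 and Fabp5 rose in aged against young cells, and the other 7 did not pass the test. The test was limma's moderated test over all 13579 genes, with Benjamini-Hochberg adjustment and a call at an adjusted p under 0.05. With 584 genes called in that comparison, the background was 4.3% (3.05% rose and 1.25% fell), against 2 of 9 members. The members were chosen with earlier results of these data known, so setting them beside all genes is a description and not an independent comparison. The log2 change was above 0 for 7 of the 9 members, with a median of 0.81, and for 41.9% of all genes, with a median of -0.05. In middle-aged against young cells 0 of the 9 were called (background 2.97%, with 1.75% risen and 1.22% fallen; 2 had an unadjusted p under 0.05), 5 had a change above 0 and the median was 0.06, against -0.04 over all genes. In aged against middle-aged cells 0 members and 0 of all genes were called (background 0%). Of all genes 1306, and of the members 3, had an unadjusted p under 0.05 there, and the members' median was 0.88. The comparisons share their groups of arrays and are given side by side.

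**Figure D1:**
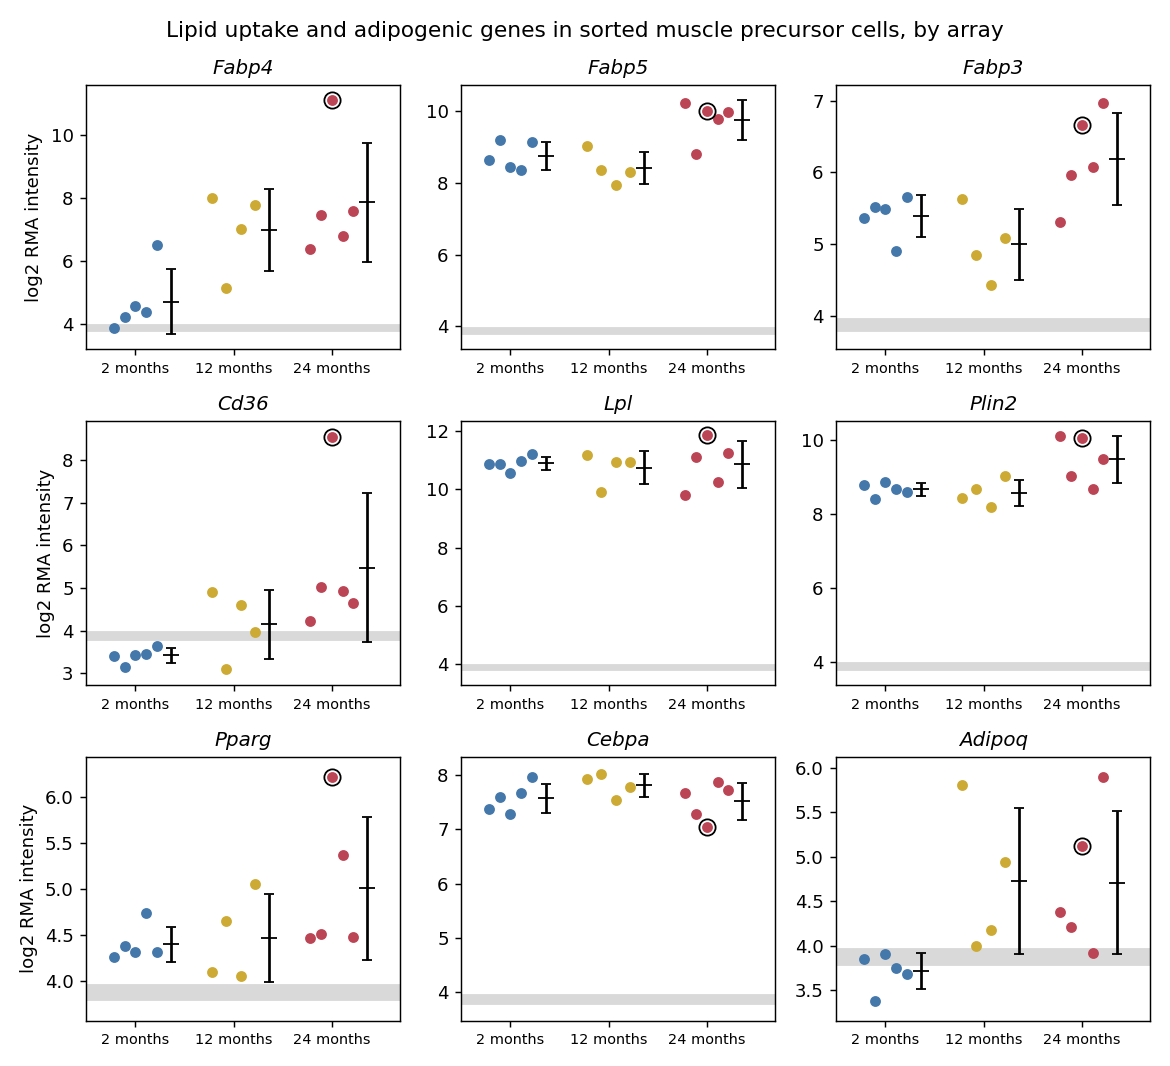
Log2 RMA intensity of each measured gene (vertical axis) on 5 arrays of 2 months, 4 of 12 months and 5 of 24 months (horizontal axis). Points are arrays, horizontal ticks with bars are the mean and SD, the grey band is the range of the arrays' 40th percentiles, and the ring marks aged array 3. Fabp4 and Cd36 have their highest value on that array, at 11.10 and 8.55.

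The arrays differed within each age, and their RNA quality also differed between ages. After subtracting the mean of each age, the first principal component of all genes held 31.5% of the variance and split the arrays into 8 (set 1, with 3 young, 3 middle-aged and 2 aged arrays) and 6 (set 2, with 2 young, 1 middle-aged and 3 aged arrays). For Gapdh and Actb, whose control probe sets report RNA quality, 3' signal minus 5' signal ran from 2.89 to 4.16 on aged and from 3.81 to 5.05 on young arrays. The mean of that difference was 4.30 in young, 3.85 in middle-aged and 3.54 in aged cells, so it and age cannot be fully told apart. Results are given within the sets and with that difference as a covariate (the RNA quality covariate) where this ends or makes a call.

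Fabp4 rose 8.86-fold in aged against young cells. On its brightest probe set, 1417023_a_at, young arrays 1 to 5 stood at 3.87, 4.23, 4.55, 4.37 and 6.51. Middle-aged arrays 1 to 4 stood at 7.99, 5.13, 6.99 and 7.77, and aged arrays 1 to 5 at 6.37, 7.44, 11.10, 6.80 and 7.57. So 4 of the 5 young arrays were low and young array 5 was high enough to overlap aged array 1, while aged array 3 stood far above all other arrays. The 40th percentiles of the young arrays ran from 3.85 to 3.94, and young array 1 lay below its own. Young levels near the dim end of the array make the fold imprecise. Of the 9 older arrays, 7 lay above every young one. The means were 4.71 ± 1.04 (SD, n = 5) at 2 months, 6.97 ± 1.30 (n = 4) at 12 months and 7.86 ± 1.88 (n = 5) at 24 months. The aged minus young change was 3.15 ± 0.79 (SE, limma adjusted p = 0.0347). Neighbouring ages did not pass: middle-aged minus young was 2.26 ± 0.84 (adjusted p = 0.186) and aged minus middle-aged 0.88 ± 0.84 (adjusted p = 0.751). The difference between the late and the early step was -1.38 ± 1.48 (adjusted p = 0.758).

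The Fabp4 change kept its direction under every alternative, but its call did not hold under all of them. Without aged array 3 it was 2.34 ± 0.58 and still called (adjusted p = 0.0357), and the middle-aged minus young change of 2.26 was then called too (adjusted p = 0.0485). The call ended when any of the first 4 young arrays, aged array 2 or aged array 5 was left out (adjusted p = 0.0540 to 0.0938), at changes of 2.94 to 3.25. Within set 1 the change was 2.64 ± 0.63 (adjusted p = 0.0399) and middle-aged minus young was called (2.37 ± 0.56, adjusted p = 0.0329). Within set 2, where 21 genes in all were called, it was 3.12 ± 1.35 (adjusted p = 0.481). With the RNA quality covariate it was 2.11 ± 0.94 (adjusted p = 0.250).

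The 4 probe sets of Fabp4 fell into a bright and a dim pair. The second bright one, 1451263_a_at, followed the first over the 14 arrays (Pearson's r = 0.991) and changed by 2.53 ± 0.69. In a fit of all 23887 kept probe sets, of which 3.1% were called, its adjusted p was 0.0644 and that of the first 0.0428. The dim probe set 1425809_at, above the 40th percentile on 4 arrays, changed by 0.29 ± 0.17 (adjusted p = 0.444), and 1424155_at was above it on 1 array, aged array 3, and was not tested. The name ending _a_at marks probes common to transcripts of 1 gene. When such probe sets were left out together with those shared between genes, 1425809_at stood for Fabp4 and the call ended (adjusted p = 0.421).

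Fabp5 rose 2.01-fold in aged against young cells. Young arrays 1 to 5 stood at 8.65, 9.19, 8.44, 8.36 and 9.15. Middle-aged arrays 1 to 4 stood at 9.03, 8.37, 7.95 and 8.30, and aged arrays 1 to 5 at 10.23, 8.82, 9.9999, 9.78 and 9.99. All aged arrays except aged array 2 lay above every young and middle-aged array. The aged minus young change was 1.01 ± 0.27 (SE, n = 5 each, limma adjusted p = 0.0479). Against middle-aged cells it was 1.35 ± 0.29, or 2.55-fold (adjusted p = 0.242), rank 14 of 13579 genes by p in a comparison with 0 calls. Middle-aged minus young was -0.34 ± 0.29 (adjusted p = 0.632), and the late minus early step was 1.69 ± 0.51 (adjusted p = 0.193). Its second probe set, 1416022_at, gave 0.99 ± 0.27 (adjusted p = 0.0634 over probe sets). Mouse Fabp5 has processed pseudogenes, which a probe set may not tell from the gene. The call lay close to the threshold, and it ended without any 1 of 9 arrays: young 1, 3 or 4, middle-aged 2 or 4, or aged 1, 3, 4 or 5 (adjusted p = 0.0599 to 0.130). Within sets 1 and 2 the change was 1.04 ± 0.34 (adjusted p = 0.114) and 0.75 ± 0.18 (0.220), and with the RNA quality covariate 0.73 ± 0.33 (0.261).

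Fabp3, the carrier of muscle fibres, did not pass the test. Its brightest probe set, 1416023_at, stood at 5.37, 5.52, 5.48, 4.90 and 5.66 on young arrays 1 to 5. It stood at 5.62, 4.85, 4.42 and 5.08 on middle-aged arrays 1 to 4, and at 5.31, 5.96, 6.66, 6.07 and 6.96 on aged arrays 1 to 5. Aged arrays 2 to 5 lay above every young and middle-aged array, and aged array 1 lay among them. The aged minus young change was 0.81 ± 0.29 (adjusted p = 0.145; called without aged array 1, at 1.03 ± 0.26, adjusted p = 0.0400), and aged minus middle-aged was 1.20 ± 0.30 (adjusted p = 0.286). The other probe set, 1444844_at, went the other way over the arrays (r = -0.54) and gave -0.07 ± 0.15, so the 2 disagree. Of 18 mature myofibre markers, 13 rose in aged against young cells, where 3.05% of all genes rose. Their summed intensity ran from 5437 to 14922 on aged, from 2603 to 5657 on middle-aged and from 1545 to 3668 on young arrays. Aged array 5 had both the highest sum (14922) and the highest Fabp3 value (6.96) of all 14 arrays. On middle-aged array 3 the highest sum of that age stood beside the lowest Fabp3 value of all 14 arrays (4.42). The part of myofibres in the Fabp3 values was not tested.

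Cd36, the membrane receptor for long-chain fatty acids, was dim in young cells and higher on every aged array, without passing the test. Its brightest probe set, 1450883_a_at, stood at 3.41, 3.16, 3.43, 3.46 and 3.65 on young arrays 1 to 5. It stood at 4.91, 3.10, 4.61 and 3.97 on middle-aged arrays 1 to 4, and at 4.22, 5.03, 8.55, 4.92 and 4.65 on aged arrays 1 to 5. Measured against each array's 40th percentile, all 5 young values were below and all 5 aged values above, so the groups did not overlap, and aged array 3 was far above the rest. Groups that do not overlap, with aged higher, were found for 2 of the 9 members (Cd36 and Adipoq) and for 3.48% of all genes. Both genes passed the filter through the older arrays, where they are high, with 0 (Cd36) and 1 (Adipoq) of 5 young arrays above the 40th percentile, so nothing is read from that count. The change was 2.05 ± 0.62 (adjusted p = 0.0828). Set against the mean 40th percentile of the young arrays (3.88), aged Cd36 was at least 3.01-fold higher, a bound that rests on aged array 3 and was 1.77-fold without it (calculated after the data were seen). Without aged array 3 the change was smaller but less spread, 1.28 ± 0.30, and was called (adjusted p = 0.0261), as it was with array weights (2.13 ± 0.58, adjusted p = 0.0457). Both calls set aged arrays against young values below the 40th percentile, in a gene kept through the older arrays. So nothing is read from these calls either. The other probe sets gave 1.45 ± 0.55 and 1.31 ± 0.58 (adjusted p = 0.198 and 0.293 over probe sets).

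Lpl, the secreted lipase, gave no call between ages, and its arrays spread more with age. On 1415904_at its young arrays 1 to 5 had 10.86, 10.85, 10.56, 10.95 and 11.21. Middle-aged arrays 1 to 4 had 11.16, 9.91, 10.94 and 10.94, and aged arrays 1 to 5 had 9.81, 11.12, 11.84, 10.23 and 11.24. The aged values lay on both sides of the young ones. The SD was 0.82 in aged and 0.23 in young cells (this difference in spread was not tested), and the change was -0.04 ± 0.33 (adjusted p = 0.971). The second probe set, 1431056_a_at, gave 0.47 ± 0.27 (adjusted p = 0.443 over probe sets).

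**Figure D2:**
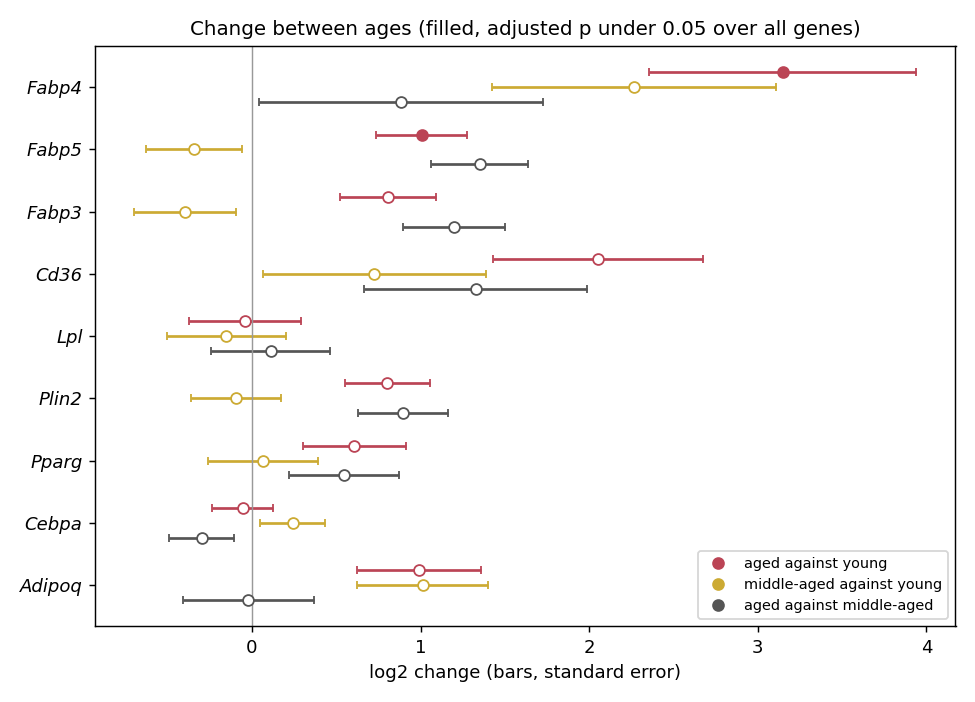
Log2 change (horizontal axis; bars, standard error) of the 9 measured genes in 3 comparisons, with filled points for an adjusted p under 0.05 over all genes. Fabp4 and Fabp5 are filled in aged against young cells, at 3.15 and 1.01, and no point is filled in the other comparisons.

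Plin2, the lipid droplet coat protein, was higher on most aged arrays but did not pass the test. Young arrays 1 to 5 had 8.79, 8.40, 8.85, 8.68 and 8.60. Middle-aged arrays 1 to 4 had 8.42, 8.66, 8.19 and 9.02, and aged arrays 1 to 5 had 10.10, 9.03, 10.05, 8.68 and 9.48. Every aged array except aged array 4 lay above all young and middle-aged ones. The aged minus young change was 0.80 ± 0.25 (adjusted p = 0.0930), and without aged array 4 it was 1.00 ± 0.23 and called (adjusted p = 0.0214). Aged minus middle-aged was 0.90 ± 0.27 (adjusted p = 0.366) and middle-aged minus young -0.09 ± 0.27 (adjusted p = 0.915).

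Neither adipogenic transcription factor among the members passed in any comparison. Pparg had 4.27, 4.38, 4.32, 4.74 and 4.31 on young arrays 1 to 5. It had 4.09, 4.65, 4.06 and 5.06 on middle-aged arrays 1 to 4, and 4.47, 4.51, 6.22, 5.37 and 4.48 on aged arrays 1 to 5. Its aged mean was raised by aged arrays 3 and 4, and the change of 0.61 ± 0.31 (adjusted p = 0.348) was 0.31 without aged array 3. Cebpa ran from 7.27 to 7.96 on young, from 7.53 to 8.02 on middle-aged and from 7.04 to 7.87 on aged arrays. The Cebpa groups overlapped throughout, with an aged minus young change of -0.06 ± 0.18 (adjusted p = 0.917). Aged array 3, the highest of the 14 for Fabp4, Cd36, Lpl and Pparg, was the lowest for Cebpa.

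Adipoq, the adipocyte hormone, was at the edge of detection in young cells and higher at both later ages. It stood at 3.85, 3.38, 3.91, 3.75 and 3.69 on young arrays, at 5.80, 4.00, 4.18 and 4.94 on middle-aged arrays and at 4.38, 4.21, 5.13, 3.92 and 5.90 on aged arrays. Only 1 young array was above its 40th percentile, while all 4 middle-aged and all 5 aged arrays were. No older array overlapped the young ones, although the gap between the highest young and the lowest aged array was narrow. Neither change passed the test: middle-aged minus young was 1.01 ± 0.39 (adjusted p = 0.197) and aged minus young 0.99 ± 0.37 (adjusted p = 0.165). Non-overlap with middle-aged higher was found for 1 of the 9 members and 3.62% of all genes. Adipoq passed the filter through the older arrays, so nothing is read from that count either. Levels near the dim end of the array make these folds imprecise.

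Among the measured members, Fabp4 and Cd36 were the pair that varied together most closely (Pearson's r = 0.893, Spearman's rho = 0.815 over 14 arrays). With the age means subtracted r was 0.871, and without aged array 3 and young array 1, the 2 farthest from the Fabp4 median, it was 0.829. These arrays share their age groups and normalization, and the values are a description. The genes most like Fabp4 over the 14 arrays were AW112010 (r = 0.926), Dock11 (0.920), Adh1 (0.913), Cybrd1 (0.901) and Hpgd (0.900). Adh1, an alcohol dehydrogenase that also acts on retinol, rose in aged (1.31 ± 0.26, adjusted p = 0.00990) and middle-aged (1.13 ± 0.28, adjusted p = 0.0409) against young cells. Cybrd1, a ferric reductase, rose by 1.31 ± 0.28 (adjusted p = 0.0119) and 1.16 ± 0.29 (0.0444), and AW112010 rose in aged cells by 1.61 ± 0.39 (0.0274). Their aged calls ended with the RNA quality covariate (adjusted p = 0.106 for Adh1, 0.109 for Cybrd1 and 0.145 for AW112010). The middle-aged call of Adh1 ended under 13 and that of Cybrd1 under 18 of 29 alternatives, and the aged call of AW112010 under 10. With the age means subtracted, the genes most like Fabp4 were 4833418N02Rik (0.898), Amacr (0.891), Glmn (0.882), Cd36 (0.871) and AW112010 (0.870).

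Markers of other cell types moved with some of these values. Capillary endothelium expresses Fabp4, Cd36 and Gpihbp1, and of 18 measured endothelial markers 12 had their highest value on aged array 3. So had 5 of 12 fibro-adipogenic, 2 of 18 myofibre, 1 of 9 macrophage, 0 of 11 pericyte and 0 of 16 satellite cell markers. The share over all genes was not counted. The summed intensity of the endothelial markers ran from 685 to 965 on young and from 658 to 788 on middle-aged arrays. It was 1898 on aged array 3, 1192 on aged array 2 and 530 to 649 on the other aged arrays. Pecam1, a defining endothelial marker, was below the 40th percentile on all 14 arrays, and Tie1, Emcn and Tal1 passed on fewer than 4. Gpihbp1 reached 8.81 on aged array 3, 7.21 on aged array 2 and 4.74 to 5.05 on the other aged arrays, against 5.06 to 6.12 on young arrays. Of the 18 markers 0 rose and 1 fell in aged against young cells (Tek, an angiopoietin receptor, -1.18 ± 0.31, adjusted p = 0.0400). Over all genes, 3.05% rose and 1.25% fell there. Across the 14 arrays the median r between Fabp4 and single endothelial markers was 0.329 (0.430 with the age means subtracted). For log2 sums of markers, r with Fabp4 was 0.605 for myofibre, 0.656 for fibro-adipogenic and 0.311 for the 18 endothelial markers. With the age means subtracted the value of the endothelial sum was 0.521, and without aged array 3 it was -0.404. For Fabp4 and Gpihbp1 these values were 0.532, 0.569 and 0.0444, and for Fabp4 and Cd36 they were 0.893, 0.871 and 0.832. Mature myofibre markers, of which 13 of 18 rose in aged against young cells, had a median r with Fabp4 of 0.574 (0.122 with the age means subtracted), between -0.51 for Myh7 and 0.75 for Myl1, both myosin chains. The part of endothelial cells or myofibres in the Fabp4 values was not tested.

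**Figure D3:**
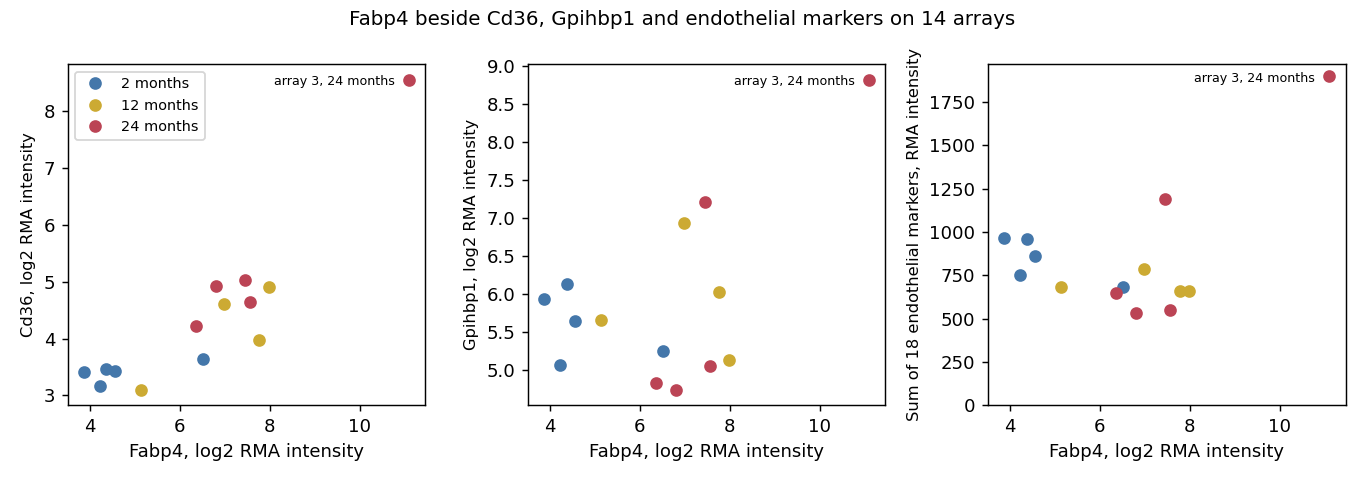
Log2 RMA intensity of Fabp4 (horizontal axes) beside Cd36, Gpihbp1 and the sum of 18 endothelial markers (vertical axes; the genes in log2 RMA intensity, the sum on the linear scale) on 14 arrays coloured by age. Aged array 3 is at the top right of each panel, and only for Cd36 do the remaining arrays also line up (r = 0.832 without it).

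Fibro-adipogenic markers also differed between ages. Of 12 measured, 3 rose in aged against young cells and 2 in middle-aged against young cells, with medians of 0.46 and 0.53. Over all genes, 3.05% rose and 1.25% fell in aged against young cells, and 1.75% rose in middle-aged against young cells. Dcn (1.27 ± 0.18, adjusted p = 0.000695) and Dpp4 (2.38 ± 0.33, adjusted p = 0.000749) rose in aged cells, and Pdgfra, a receptor that marks these cells, had 1.08 ± 0.36 (adjusted p = 0.119). The summed intensity ran from 19077 to 25298 on young, from 25872 to 38096 on middle-aged and from 20340 to 37716 on aged arrays, and Osr1 was below the 40th percentile on all arrays. Over the 14 arrays r with Fabp4 was above 0 for 9 of the 12 markers and below 0 for 3, with a median of 0.637 (0.485 with the age means subtracted). It was highest for Dpp4 (0.874), Mfap5 (0.852) and Pdgfra (0.821), and lowest for Col3a1 (-0.36), Dpt (-0.24) and Clec3b (-0.15), genes named here after their values were seen. Mfap5 rose by 1.85 ± 0.44 in aged cells (adjusted p = 0.0232). Of the macrophage markers, Ptprc, Cd163, Itgam, Aif1, Cx3cr1 and C1qb were below it on all arrays, while of the 9 measured 1 rose in aged against young cells and 0 fell, with a median of 0.10. The 1 that rose was Cd14, which other cells also express (1.33 ± 0.25, adjusted p = 0.00634). The summed intensity of the 9 ran from 441 to 981 on aged and from 277 to 384 on young arrays. Of 16 satellite cell markers, 0 rose and 4 fell in aged against young cells, and the sum ran from 17867 to 23638 on aged and from 22109 to 30308 on young arrays. Over the 14 arrays r with Fabp4 was below 0 for all 16, with a median of -0.380 (-0.105 with the age means subtracted). For the log2 of their sum r with Fabp4 was -0.775. Pericyte and smooth muscle markers (1 of 11 rose) summed to 3893 to 5564 on aged and 2919 to 5425 on young arrays. The part of any of these cells in the values of the members was not tested. In such bulk samples a change in the number of cells of a type and a change in RNA per cell cannot be told apart.

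Few genes were called in each list of the wider pathway. Over all genes, 3.05% rose and 1.25% fell in aged against young cells, and 1.75% rose and 1.22% fell in middle-aged against young cells. In lists this short, a count of 1 is not read as a result about the list. Of 19 measured genes of fatty acid uptake and activation, 0 rose and 1 fell in aged against young cells (median -0.06): Vldlr, the lipoprotein receptor that works with Lpl, stood at 9.10, 9.23, 9.29, 8.38 and 8.98 on aged arrays, against 9.97, 9.72, 10.04, 9.81 and 9.73 on young arrays. It changed by -0.86 ± 0.17 (adjusted p = 0.00853) and by -0.84 ± 0.18 (0.0208) in middle-aged cells. The first call ended under 2 of 29 alternatives, among them the RNA quality covariate (adjusted p = 0.0852), and the second under 8. Of 23 adipogenic transcription factors beside Pparg and Cebpa, 3 rose in aged and 2 in middle-aged against young cells (medians 0.12 and -0.07). Ebf1, an early factor of the adipocyte lineage, rose by 2.82 ± 0.46 (adjusted p = 0.00231). It was above the 40th percentile on 1 of 5 young, 4 of 4 middle-aged and 5 of 5 aged arrays. So Ebf1 passed the filter through the older arrays, where it is high. Nothing is read from its place among the 3, and its fold is imprecise. Its call ended under 2 of 29 alternatives, among them without probe sets of shared sequence (0.65, adjusted p = 0.186). Stat5a rose by 0.64 ± 0.13 (adjusted p = 0.00853) in aged and 0.74 ± 0.13 (0.00721) in middle-aged cells. Cebpd, which acts upstream of Cebpa and Pparg, rose by 0.53 ± 0.12 (0.0189) and 0.65 ± 0.13 (0.0120). Its aged call ended under 7 of 29 alternatives, among them without young array 4 (0.0531), and its middle-aged call under 3.

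Among 25 measured adipocyte products, 1 rose at each later age (4% of the list, beside 3.05% of all genes in aged and 1.75% in middle-aged cells). This was Car3, carbonic anhydrase 3, which is abundant in adipocytes and in slow muscle fibres: it changed by 2.92 ± 0.55 in aged (adjusted p = 0.00648) and 2.78 ± 0.58 in middle-aged cells (0.0183). The Car3 call at 12 months ended under 4 of 29 alternatives, among them without young array 4 or middle-aged array 4 (adjusted p = 0.0689 without middle-aged array 4). Its call at 24 months ended under 3, among them the RNA quality covariate (0.0533). Of this list, 5 genes did not pass the filter: Pck1 and Ucp1 lay below the 40th percentile on all 14 arrays, the hormone Lep and the droplet protein Cidec were above it on 1 and the glycerol channel Aqp7 on 2. Others were above it on all 14, among them Plin4, Slc2a4, Lipe and Retn. Plin1 had no probe set of its own in the annotation and was not analysed here. Of 14 further lipid droplet proteins, 1 rose at each later age: Hsd17b11, a dehydrogenase of droplets, changed by 0.86 ± 0.12 in aged (adjusted p = 0.000695) and 0.50 ± 0.13 in middle-aged cells (0.0460), and the call at 12 months was lost under 20 of 29 alternatives. With the mean of its probe sets Hsd17b11 changed by 0.48 ± 0.15 in aged cells and was not called (adjusted p = 0.0969).

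No fatty acid oxidation gene passed the test in any comparison of ages. Of 24 measured, 0 were called by limma (3, 4 and 4 at an unadjusted p under 0.05) and the median was -0.02 in aged against young, -0.14 in middle-aged against young and 0.21 in aged against middle-aged cells. The smallest p-values belonged to the thiolase Acaa2 (0.71 ± 0.21, adjusted p = 0.0788) and the isomerase Eci1 (0.38 ± 0.15, 0.198) in aged against young cells. In middle-aged against young cells they were those of the dehydrogenase Acadl (-0.57 ± 0.15, adjusted p = 0.0533, called under 10 of 29 alternatives) and Cpt2, a carnitine palmitoyltransferase (-0.58 ± 0.20, 0.164). Of 6 measured relatives of the fatty acid-binding proteins, 1 was called by limma in aged against young cells: Crabp1, a retinoic acid-binding protein (adjusted p = 0.0376). Set against the mean 40th percentile of the young arrays, aged Crabp1 was at least 1.40-fold higher. That bound was not tested, and it was 1.27-fold without aged array 3. Crabp1 was above the 40th percentile on 5 of 5 aged, 1 of 4 middle-aged and 0 of 5 young arrays. So it passed the filter through the aged group in which it is high, and its call ended under 14 of 27 alternatives. Fabp2, Fabp6, Fabp9 and Fabp12 were below the 40th percentile on all arrays, and Fabp7 had -0.97 ± 0.48 (adjusted p = 0.336) and Rbp7 -0.42 ± 0.33 (0.591) in middle-aged against young cells. Between aged and middle-aged cells no gene of the 6 lists was called. The smallest p-values there were those of Acadl (0.55 ± 0.15, adjusted p = 0.341), Acaa2 (0.63 ± 0.22, 0.421), Crabp1 (0.71 ± 0.24, 0.410) and Hsd17b11 (0.36 ± 0.13, 0.418). Ebf1 (1.21 ± 0.49, adjusted p = 0.469), Hsd17b13 (-0.41 ± 0.17, 0.472), Rxrg (0.57 ± 0.25, 0.480), Acsl5 (0.44 ± 0.20, 0.499) and Scarb1 (0.60 ± 0.31, 0.551) followed. Retn (-0.40 ± 0.23, 0.580), Rbp4 (-0.52 ± 0.31, 0.602) and Rbp7 (0.44 ± 0.33, 0.673) completed the first 2 of each list.

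**Figure D4:**
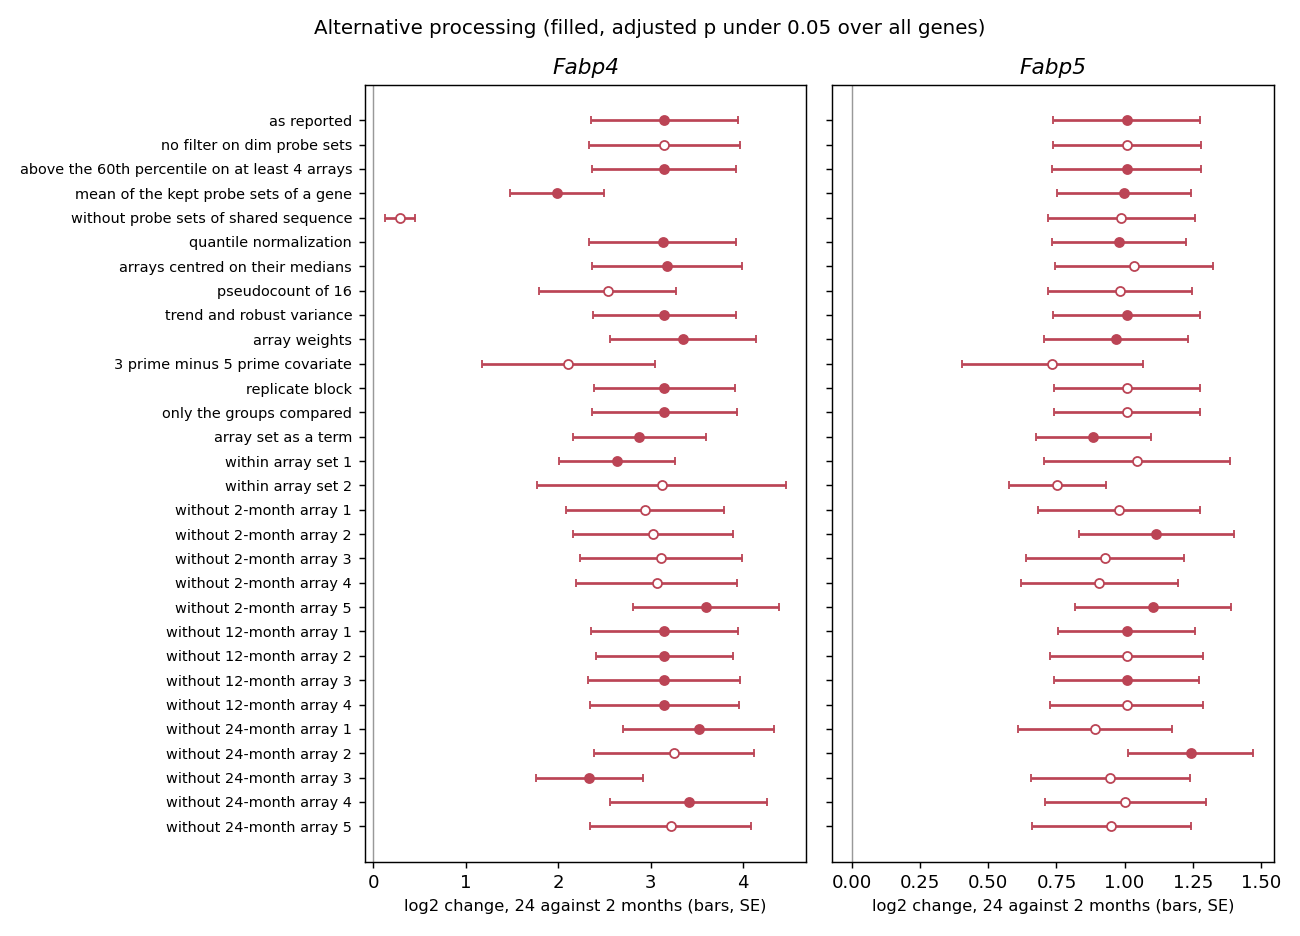
Log2 change in aged against young cells (horizontal axes; bars, standard error) of Fabp4 and Fabp5 as reported and under 29 alternatives (rows), with filled points for an adjusted p under 0.05. Every point lies above 0, and open points mark the settings under which a call ended, among them the RNA quality covariate (Fabp4 at 2.11, Fabp5 at 0.73).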

How the data were processed

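Per the submitters' processing notes, the authors deposited RMA intensity values, that is, background-corrected, normalized and summarized per probe set. RMA's version and the genome build are not stated in the labels. Array medians were 19.0 to 21.2 on this linear scale, and log2 of the values was used with no other normalization. Of 45101 probe sets, 34945 had 1 gene symbol in the platform annotation, 932 several and 9160 none, with 64 controls. The filter left 23887 probe sets and 13579 genes, the brightest kept probe set standing for its gene. Age was the only factor of a model of all 14 arrays (limma 3.58.1, R 4.3.3; two-sided), tested on simulated data. The number of arrays limits the precision. No 2 arrays held identical values (highest correlation 0.989). Members and lists were chosen with earlier results of these data known. The text names all members, called genes of each pathway list (otherwise the 2 with the smallest p) and the 5 genes most like Fabp4; named cell markers include some picked after their values were seen. Alternatives changed the filter, probe set choice, normalization, pseudocount, variance model, array weights, covariate, block, groups and arrays.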

Additional observations from a re-analysis of the deposited data

Results flagged for a closer look

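Single arrays stood apart from the others of their age in 6 of 51 sets (17 named genes in 3 age groups), by the gap to the nearest array over the range of the group, and chance gives about 1 in 20. Fabp4 was high on aged array 3 (11.10, against 6.37 to 7.57 on the other 4) and on young array 5 (6.51, against 3.87 to 4.55). Cd36 was high on the same aged array (8.55, against 4.22 to 5.03). Pparg was high on young array 4 (4.74, against 4.27 to 4.38), and Cebpd was low on it (11.20, against 11.51 to 11.57). Crabp1 was high on middle-aged array 3 (4.42, against 3.29 to 3.45).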

How the results depend on the processing

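The number of members called in aged against young cells was 2 as reported and ran from 0 to 2 when single arrays were left out. It was 0 with no filter on dim probe sets, without probe sets of shared sequence, with a pseudocount of 16, with the RNA quality covariate and within set 2, and it was 1 (Fabp4) with arrays centred on their medians, with the replicate block, with only the groups compared and within set 1. With array weights it was 3, with Cd36 added, a gene that passed the filter through the older arrays. Fabp4 stayed above 0 under all 29 alternatives (2.34 to 3.60 over single arrays left out, adjusted p = 0.0209 to 0.0938) but was not called without the filter (3.15, adjusted p = 0.0561), without shared probe sets (0.29, 0.421), with the pseudocount (2.54, 0.0765), with the covariate (2.11, 0.250) or within set 2 (3.12, 0.481). In middle-aged against young cells the count was 0 to 1 without single arrays and 1 within set 1, both times Fabp4. It stayed 0 in aged against middle-aged cells and in the late minus early step under every alternative run.

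Changes near 0 turned sign. For Lpl, aged against young gave 0.22 with the mean of probe sets, 0.0237 with array weights, 0.0748 within set 2 and -0.29 to 0.22 without single arrays. Its middle-aged against young change was 0.13 within set 2 and -0.29 to 0.12 without single arrays, and its aged against middle-aged change -0.0510 with the set as a term, -0.13 and -0.0521 within sets 1 and 2, and -0.16 to 0.37 without single arrays. Cebpa in aged against young cells was 0.0328 within set 1 and -0.15 to 0.0628 without single arrays. Pparg in middle-aged against young cells was -0.10 with the covariate, -0.0142 with the replicate block, -0.25 within set 2 and -0.13 to 0.20 without single arrays, and -0.10 in aged against middle-aged cells within set 1. Plin2 in middle-aged against young cells was 0.0367 with the covariate and -0.24 to 0.0338 without single arrays, and Fabp3 was 0.0312 within set 2. Adipoq in aged against middle-aged cells was 0.0545 with quantile normalization, 0.0370 with centring, 0.00418 with array weights and -0.32 to 0.33 without single arrays. Gpihbp1 in aged against young cells was -0.15 without aged array 3 and up to 0.87 without others, Rbp7 in middle-aged against young cells 0.23 within set 2, Acsl5 in aged against middle-aged cells -0.10 within set 2, and the Fabp4 late minus early step 0.0924 without shared probe sets. The cause was not tested. The replicate numbers of the labels did not pair the arrays (correlations of same-numbered deviations -0.484 to 0.261), and the replicate block left Fabp4 called (3.15 ± 0.76, adjusted p = 0.0480) and Fabp5 not (1.01 ± 0.27, 0.0689).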
